A study of Mus musculus with 6 samples.

Results

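The reticulons of the mouse spinal cord were followed at 9 probe sets of 4 genes, chosen as every probe set that the platform annotation assigns to Rtn1, Rtn2, Rtn3 or Rtn4. They were 1 probe set of Rtn1, 1 of Rtn2, 2 of Rtn3 and 5 of Rtn4, among 45101 probe sets on each array. The tested animals were 3 Nogo-A knockout mice on the C57Bl/6 strain, and they were set against 3 wild type C57Bl/6 mice. All were untreated males aged 4 months, and RNA of the whole spinal cord of each animal was measured on its own Affymetrix Mouse 430 2.0 array. Which exons the knockout removes, how the line was made and how far it was backcrossed are not given in the sources used here. The study compared the uninjured cord of the 2 genotypes, and the question put to the reticulons was whether the other products of Rtn4 and the paralogs were higher where Nogo-A was missing.

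Reticulons are membrane proteins of the endoplasmic reticulum. They share a C-terminal reticulon homology domain whose hydrophobic hairpins bend the membrane into tubules, and they differ in their N-terminal parts. Rtn4 encodes Nogo-A, the long form known for restraining axon growth from the surface of oligodendrocytes and made also by neurons, together with the shorter Nogo-B and Nogo-C, which lack the Nogo-A-specific stretch. Rtn1 is enriched in neurons, Rtn2 is best known from neurons and muscle and is linked to hereditary spastic paraplegia in humans, and Rtn3 is broadly expressed in brain and binds the beta-secretase Bace1.

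The starts annotated for these genes show a way in which transcripts of Rtn4 can differ. They do not tell which start gives Nogo-A, Nogo-B or Nogo-C. In the RefSeq promoter table of GRCm38.p6, Rtn4 on chromosome 11, from 29692898 to 29744414 on the plus strand, has 3 annotated transcription starts. The last of them lies 25665 bases downstream of the first, inside the gene, and a transcript from it lacks every exon upstream. Rtn1 also has 3 starts, while Rtn2 and Rtn3 have 1 each. The 250 bases before the first and the last start of Rtn4 are printed to show how unlike they are, and those before the start of Rtn3 for a paralog. Capitals mark CCAAT and GGGCGG on either strand, and TATAAA was searched in the same way.
Rtn4, start nearest the gene's 5′ end, chr11:29692648-29692897, plus strand: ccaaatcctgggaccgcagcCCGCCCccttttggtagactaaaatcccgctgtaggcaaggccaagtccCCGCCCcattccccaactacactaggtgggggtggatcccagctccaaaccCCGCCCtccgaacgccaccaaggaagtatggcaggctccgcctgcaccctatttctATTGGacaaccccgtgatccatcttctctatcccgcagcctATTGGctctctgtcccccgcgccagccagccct
Rtn4, start inside the gene, chr11:29718313-29718562, plus strand: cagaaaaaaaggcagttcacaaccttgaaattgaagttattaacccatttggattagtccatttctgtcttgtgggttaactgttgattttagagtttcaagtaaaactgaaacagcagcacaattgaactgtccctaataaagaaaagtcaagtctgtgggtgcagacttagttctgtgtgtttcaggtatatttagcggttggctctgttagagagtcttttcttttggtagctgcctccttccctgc
Rtn3, start, chr19:7483292-7483541, minus strand: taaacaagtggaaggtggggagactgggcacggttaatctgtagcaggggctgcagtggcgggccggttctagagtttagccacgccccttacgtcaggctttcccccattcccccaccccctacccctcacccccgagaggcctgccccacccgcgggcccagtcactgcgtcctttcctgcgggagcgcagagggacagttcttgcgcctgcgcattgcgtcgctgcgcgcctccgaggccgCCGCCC
The first Rtn4 window held 2 CCAAT and 3 GGGCGG matches and 12 CpG dinucleotides in 61.2% GC. The last window held none of the 3 motifs and 1 CpG in 39.2% GC. The Rtn3 window held 1 GGGCGG match and 20 CpG dinucleotides. Over all 32851 windows of this length in the table, 33.8% held CCAAT, 32.7% GGGCGG and 12.4% TATAAA, and the median window had 6 CpG dinucleotides. The matches describe the letters of the windows, and the arrays do not tell which start a transcript used.

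The values deposited by the authors were linear intensities in arbitrary units, here called signals. Trimmed by 2% at either end, the mean signal was 500.002 to 500.003 on every array, so all arrays had been brought to a common target, and the signals were compared on log2 without further scaling. Array medians nevertheless lay at 144 to 149 in knockout and at 148 to 196 in wild type, and wild type replicate 3 had the lowest mean correlation with the other arrays, 0.930 against 0.952 to 0.961. Because that array stands apart, results are also given without it. The skeletal muscle actin gene Acta1 also set arrays apart, with 657, 4593 and 536 in knockout and 385, 754 and 2142 in wild type. A probe set was tested where it lay at or above its array's 50th percentile on at least 2 of 3 arrays of a genotype. This left 23525 probe sets, and all 9 reticulon probe sets passed. Their signals cannot be compared with each other, because each probe set responds to RNA in its own way. Nothing in the labels says more of the replicates than that they are separate animals, and the smallest p of an exact permutation test over 6 arrays is 0.1.

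The Nogo-A knockout was visible at 1 of the 5 Rtn4 probe sets. Probe set 1437224_at had signals of 78.2, 9.17 and 5.08 on knockout replicates 1 to 3, against 3560.2, 2790.4 and 2802 on wild type replicates 1 to 3. The groups lay far apart, and the highest knockout signal was on replicate 1. Each knockout signal was under the median of its array, so only a bound is given for the fold. The fitted log2 values below rest on those dim signals and are not measured folds. Against the higher of array median and own signal, the mean was at least 20.8-fold higher in wild type. The fitted log2 difference was -7.62 with a standard error of 0.76 (limma, Benjamini-Hochberg adjusted p = 0.0151 over all tested probe sets, lower in 3 of 3 knockout arrays). It was the only probe set of the whole table that passed, 0.00425% of those tested. The call was lost without wild type replicate 2 (limma adjusted p = 0.161) and without knockout replicate 2 (limma adjusted p = 0.148). It was also lost in limma without an intensity trend (adjusted p = 0.533), and over all settings tried the adjusted p ranged from 1.11e-06 to 0.684. It was also the 1 reticulon probe set with all knockout arrays below all wild type arrays (6.62% of tested probe sets), the 1 at an unadjusted p under 0.05 on the lower side in limma (3.98%) and the 1 past the thresholds of the methods' t-test there (2.59%). Every library labelled as knockout lacked a signal of wild type size at this probe set, and every library labelled as wild type had one.

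**Figure D1:**
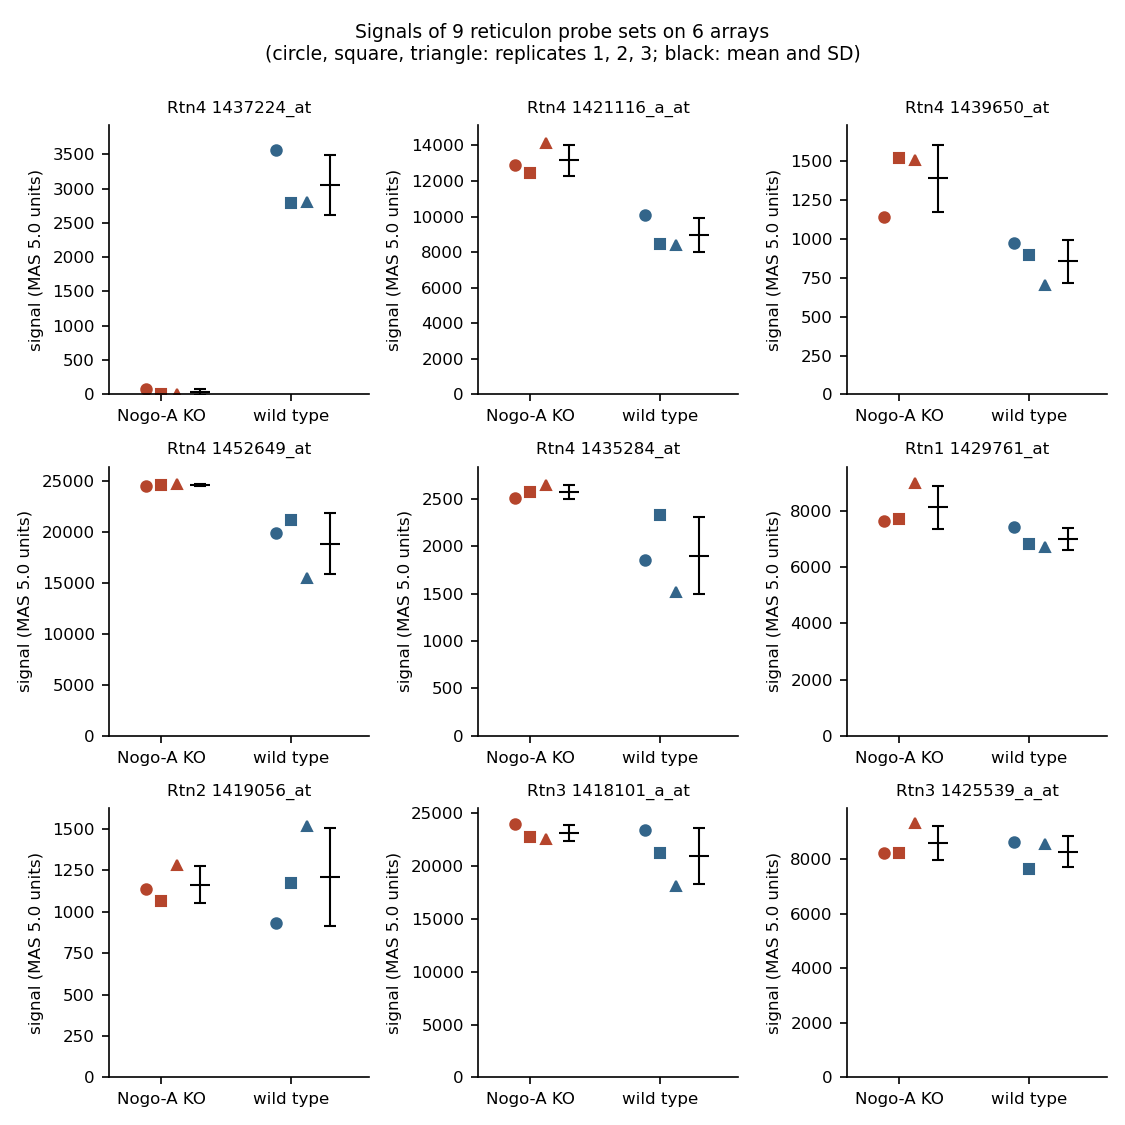
Signals in MAS 5.0 units of the 9 reticulon probe sets, with the 3 Nogo-A knockout arrays left and the 3 wild type arrays right in each panel, and with the mean and SD in black (n = 3 each). Rtn4 1437224_at is near 0 in knockout, at 5.08 to 78.2, and the other 4 Rtn4 probe sets are higher on each knockout array than on every wild type array.

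The other 4 probe sets of Rtn4 kept their signal in the knockout, with each knockout array above each wild type array, but none passed the test. Which part of Rtn4 a probe set covers is not given in the sources used here, so no signal can be assigned to Nogo-A, Nogo-B or Nogo-C. Probe set 1421116_a_at, whose name marks a probe set shared by several transcripts of 1 gene, had 12889, 12459 and 14122 in knockout and 10061, 8464 and 8387 in wild type. The lowest knockout signal was 12459 and the highest wild type signal 10061. Its mean was 13157 ± 863 in knockout and 8971 ± 945 in wild type (SD, n = 3 each), a fold of 1.47 with a 95% interval of 1.27 to 1.71. By p it ranked 6 of 23525, with an unadjusted p of 0.000137 and an adjusted p of 0.538 in limma, so it did not pass.

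Probe set 1439650_at had 1141, 1521 and 1508 in knockout and 974, 896 and 704 in wild type. Knockout replicate 1 was the lowest of its group and still above all wild type arrays. The fold of 1.62 had a 95% interval of 1.27 to 2.07 (limma adjusted p = 0.591).

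Probe set 1435284_at had 2502, 2568 and 2645 in knockout and 1855, 2325 and 1519 in wild type. The knockout signals lay close together and the wild type signals were scattered below them. The fold was 1.37 with a 95% interval of 1.11 to 1.71 (limma adjusted p = 0.591).

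Probe set 1452649_at had 24549, 24598 and 24730.5 in knockout and 19922, 21162.5 and 15477 in wild type. Wild type replicate 3 was the lowest of all arrays here, as it was at 1421116_a_at, 1435284_at and 1439650_at. The fold was 1.32 with a 95% interval of 1.11 to 1.56 (limma adjusted p = 0.591).

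Over the 4 probe sets, all had 3 knockout arrays above 3 wild type arrays, an arrangement found at 7.85% of tested probe sets. All 4 also had an unadjusted p under 0.05 in limma, which 4.31% of tested probe sets had on the higher side. Bright probe sets leaned upward in knockout. With the filter at the 75th percentile, which these 4 passed, 779 of 11676 probe sets were higher at that p and 245 lower. The median log2 difference was then 0.049, against 0.0079 over all tested probe sets. The 4 report on the same gene and share the same 6 animals, so they are not 4 independent findings. None passed over the whole table, where limma called 0 probe sets (0%) higher in knockout, with 1013 at an unadjusted p under 0.05. The methods' t-test called 3 of the 9 reticulon probe sets higher at the study's thresholds of an unadjusted p under 0.05 and a fold of at least 1.2, against 527 or 2.24% of all tested probe sets, and 0 after Benjamini-Hochberg adjustment. Without wild type replicate 3 the log2 differences were 0.51, 0.56, 0.31 and 0.26 for 1421116_a_at, 1439650_at, 1435284_at and 1452649_at, against 0.56, 0.70, 0.46 and 0.40 with it.

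**Figure D2:**
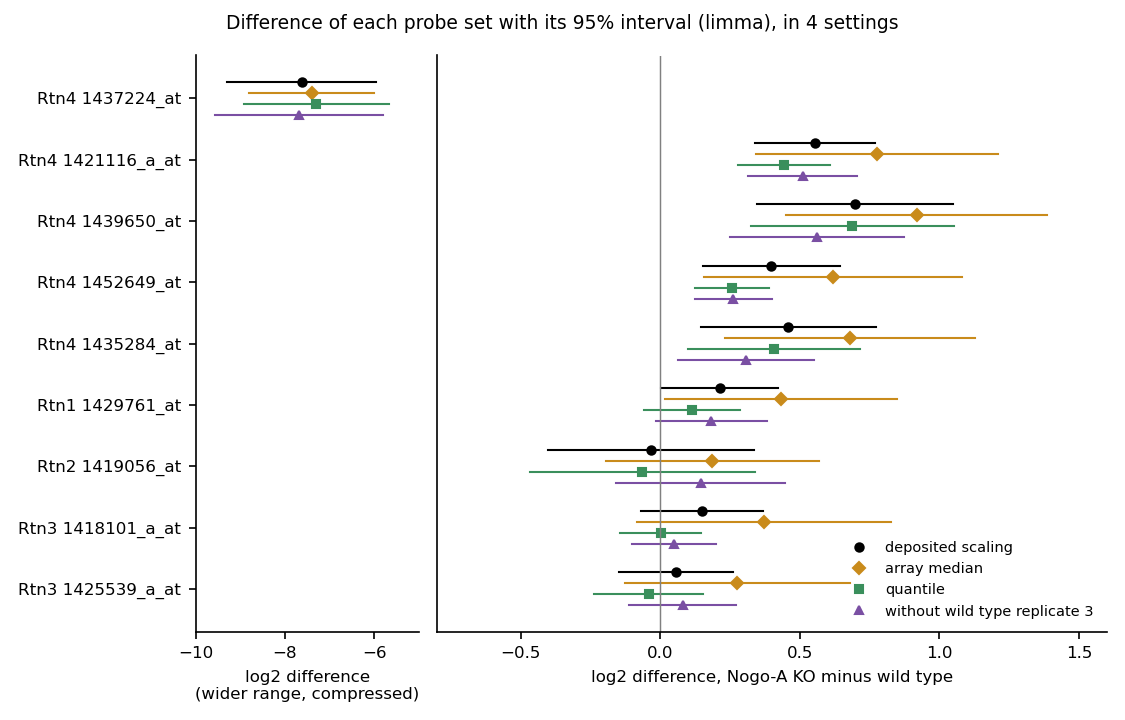
Log2 difference of each probe set, Nogo-A knockout minus wild type, with its 95% interval from limma, under the deposited scaling, division by the array median, quantile normalization, and without wild type replicate 3; the left panel has a compressed axis. The intervals of the 4 Rtn4 probe sets other than 1437224_at lie above 0 in all 4 settings, those of Rtn2 and Rtn3 include 0 in all 4, and that of Rtn1 includes 0 in 2 of them.

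The fitted log2 differences of the paralogs lay between -0.034 and 0.21, against 0.40 to 0.70 at these 4 Rtn4 probe sets. Rtn1, measured by 1429761_at, had 7652, 7699 and 8996 in knockout and 7434, 6832 and 6697 in wild type. The groups did not overlap, but the gap between the lowest knockout and the highest wild type array was small beside the spread within knockout. The mean was 8115 ± 763 in knockout and 6988 ± 392 in wild type (SD, n = 3 each), a fold of 1.16 with a 95% interval of 1.002 to 1.34 (limma unadjusted p = 0.0471, adjusted p = 0.599). Its log2 difference was 0.21 with the deposited scaling, 0.11 after quantile normalization and 0.43 after division by array medians, a step that moved the median of all tested probe sets to 0.23 from 0.0079. Leaving out each array in turn gave 0.14 to 0.26, the lowest without knockout replicate 3 (limma unadjusted p = 0.215). The 95% interval included 0 in limma without an intensity trend (-0.084 to 0.51) and with the replicate block (-0.0050 to 0.43).

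Rtn2, measured by 1419056_at, had 1136, 1065 and 1284 in knockout and 934, 1174 and 1518 in wild type. The knockout arrays lay inside the wild type range. The fold was 0.977 with a 95% interval of 0.756 to 1.26 (limma adjusted p = 0.970), and its log2 difference of -0.034 became 0.14 without wild type replicate 3, the array with its highest signal. Of the arrays with the highest Acta1 in their genotype, knockout replicate 2 had the lowest Rtn2 signal of the knockouts and wild type replicate 3 the highest of the wild types. The part of muscle RNA in the Rtn2 signal was not tested.

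Rtn3 was measured by 2 probe sets, 1418101_a_at and 1425539_a_at. Probe set 1418101_a_at had 23986, 22766 and 22581 in knockout and 23424, 21278 and 18113 in wild type. Only wild type replicate 3 stood clearly below the others, and the fold was 1.11 with a 95% interval of 0.953 to 1.29 (limma adjusted p = 0.690). Its log2 difference was 0.15, against 0.049 without that array and 0.0015 after quantile normalization. Probe set 1425539_a_at had 8237, 8227 and 9317 in knockout and 8635, 7620.2 and 8549 in wild type. The genotypes were interleaved, and the fold was 1.04 with a 95% interval of 0.902 to 1.197 (limma adjusted p = 0.890).

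At none of the 4 paralog probe sets was a rise past the threshold seen, and 1 of 4 had all knockout arrays above all wild type arrays, against 7.85% of tested probe sets. Under the deposited scaling the 95% intervals ended at 1.34-fold for Rtn1, 1.26-fold for Rtn2 and 1.29-fold and 1.197-fold for Rtn3. These ends depend on the setting: with median scaling they lay at log2 differences of 0.85 for Rtn1, 0.57 for Rtn2 and 0.82 and 0.68 for Rtn3, and without knockout replicate 1 that of Rtn1 lay at 0.52. A p that misses the threshold does not show that the paralogs were equal between genotypes. In data simulated for this comparison limma called 13.7% of 1.5-fold changes, 46.6% of 2-fold changes and 77.9% of 4-fold changes over 23525 probe sets, so most changes near 1.5-fold went uncalled there. Each simulation held 200 changed probe sets drawn over all signal levels, while limma called 1 probe set in the data. The p needed to pass depends on how many probe sets change, so these rates are not those of the paralog probe sets.

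Ratios taken within an array do not depend on a single factor applied to the whole array, though quantile normalization can move them. They were used to set the difference at Rtn4 against that at its paralogs. The ratio of Rtn4 1452649_at to Rtn3 1418101_a_at was 1.02, 1.08 and 1.095 in knockout and 0.850, 0.995 and 0.854 in wild type. No knockout array overlapped with wild type, and the fold of the ratio was 1.19 (exact two-sided permutation test, p = 0.1, the smallest that 6 arrays allow, and 0.28 adjusted over 7 ratios). The ratio of the same probe set to Rtn1 had a fold of 1.14 and that to Rtn2 a fold of 1.35, both with overlapping genotypes (exact permutation p = 0.2 each, 0.28 adjusted). Without wild type replicate 3 the log2 differences of these ratios were 0.079 for Rtn1 and 0.12 for Rtn2, against 0.18 and 0.43 with it, and that for Rtn3 was 0.21, against 0.25.

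Probe set 1421116_a_at was then put in place of 1452649_at, a choice made after seeing the data. It had the smallest p among the Rtn4 probe sets that did not pass and was taken for that, so its ratios are no separate evidence of a difference. The genotypes did not overlap in any of the 3 ratios. To Rtn1 it was 1.68, 1.62 and 1.57 in knockout and 1.35, 1.24 and 1.25 in wild type, a fold of 1.27. To Rtn3 1418101_a_at it was 0.537, 0.547 and 0.625 in knockout and 0.4295, 0.398 and 0.463 in wild type, a fold of 1.32. To Rtn2 it was 11.3, 11.7 and 11.003 in knockout and 10.8, 7.21 and 5.52 in wild type, a fold of 1.505, where wild type replicate 1 lay close to the knockout arrays. Each had an exact permutation p of 0.1, the smallest possible, and 0.1 adjusted over the 3. Without wild type replicate 3 the log2 differences were 0.33 for Rtn1, 0.36 for Rtn2 and 0.46 for Rtn3, against 0.34, 0.59 and 0.41 with it.

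Among the Rtn4 probe sets that kept their signal, the genotypes overlapped in each ratio under the deposited scaling with all 6 arrays. The ratio of 1421116_a_at to 1452649_at was 0.534 ± 0.033 in knockout and 0.482 ± 0.074 in wild type (SD, n = 3 each, exact permutation p = 0.4), and that of 1435284_at to 1452649_at was 0.104 ± 0.0025 in knockout and 0.1004 ± 0.0086 in wild type (exact permutation p = 0.5). The ratio of 1439650_at to 1452649_at was 0.0465, 0.0618 and 0.0610 in knockout and 0.0489, 0.0423 and 0.0455 in wild type (exact permutation p = 0.2). Knockout replicates 2 and 3 stood above wild type, and knockout replicate 1 within it. The overlap depended on the setting. The ratio of 1421116_a_at to 1452649_at separated the genotypes after quantile normalization (log2 difference 0.19) and without wild type replicate 3 (0.25), that of 1439650_at without knockout replicate 1 (0.43) and that of 1435284_at without wild type replicate 2 (0.13), each at an exact permutation p of 0.1. The ratio of 1439650_at to 1452649_at also separated the genotypes without wild type replicate 1 (0.35), at an exact permutation p of 0.2. An overlap in so few arrays does not show that the probe sets differed alike between genotypes.

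**Figure D3:**
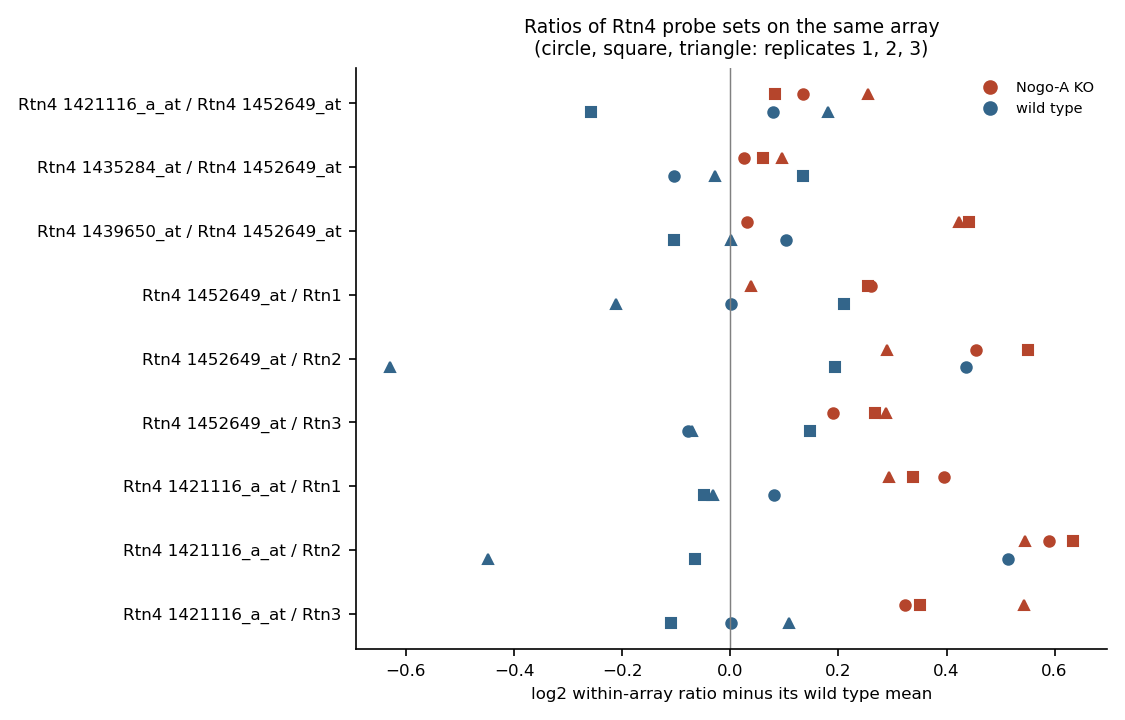
Log2 of within-array ratios of Rtn4 probe sets, each minus its wild type mean, with knockout above wild type in each row and Rtn4 1437224_at left out. The 3 ratios of 1421116_a_at to the paralogs separate the genotypes (folds of 1.27, 1.505 and 1.32 to Rtn1, Rtn2 and Rtn3), but this probe set was chosen after seeing the data, for its small p. Of the ratios of 1452649_at to the paralogs only that to Rtn3 separates them, and those between Rtn4 probe sets overlap.

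Summed signals of oligodendrocyte and neuron markers were higher on each knockout array than on every wild type array, but no marker passed the test. The same held for the sums of Schwann cell markers, reticulum-shaping genes and Nogo-A receptors and partners, given below. Such sums are carried mostly by the brightest probe sets, and which lists separate the genotypes depends on the measure. By mean log2 of members, Schwann cell markers and Nogo-A receptors and partners overlapped (exact permutation p = 0.5 and 0.3). Oligodendrocyte, neuron and astrocyte markers and reticulum-shaping genes did not overlap by that measure (exact permutation p = 0.1 each). Of 14 oligodendrocyte markers 13 were tested, 10 had a log2 difference above 0 (against 51.4% of all tested probe sets), 0 passed in limma and 6 had an unadjusted p under 0.05 on the higher side (against 4.31% of all). None had a signal of 0. Their summed signal was 142459 to 157102 in knockout and 125979 to 129327 in wild type, with no overlap. Of these Mbp, which encodes myelin basic protein, was 1.23-fold (limma adjusted p = 0.591), Opalin 1.41-fold and the myelin transcription factor gene Myrf 1.56-fold, none past the threshold in limma, while Mog was 0.973-fold and Cldn11 0.954-fold. Neuron markers, 14 of 15 tested, 12 above 0 and 6 at an unadjusted p under 0.05 on the higher side, summed to 157286 to 163917 in knockout and 133244 to 151222 in wild type, led by Uchl1 at 1.20-fold, Stmn2 at 1.17-fold and Nefh at 1.17-fold (limma adjusted p of 0.591 to 0.595). Among the neuron markers Slc17a6 at 0.966-fold and Slc6a5 at 0.970-fold lay on the lower side. The median log2 difference was 0.23 for oligodendrocyte and 0.19 for neuron markers. It was 0.0079 over all tested probe sets and 0.049 with the filter at the 75th percentile.

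Expressed relative to the oligodendrocyte markers, which was added after seeing the data, the log2 differences were 0.32 for 1421116_a_at, 0.46 for 1439650_at, 0.22 for 1435284_at and 0.16 for 1452649_at. The 95% intervals of the last 2 then included 0. Relative to the neuron markers the 4 differences were 0.41, 0.55, 0.31 and 0.25, and all 4 intervals lay above 0. Rtn1, a gene of neurons, had 0.066 relative to the neuron markers, with a 95% interval of -0.10 to 0.23, and Rtn3 had 0.0023 and -0.092. In whole tissue a change in the number of cells of a type and a change in RNA per cell cannot be told apart.

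Markers of other cell types were mixed. Astrocyte markers, 8 of 8 tested, had a median of 0.11 with summed signals of 96030 to 100149 in knockout and 83418 to 96362 in wild type. Their leading members were Gfap at 1.48-fold, Aldoc at 1.14-fold and Aqp4 at 0.859-fold. Gfap overlapped between genotypes, with 7761, 7542 and 11552 in knockout and 6146, 3726 and 9057 in wild type. Microglia markers had a median of -0.13 over 8 of 8, with sums of 10206 to 11511 in knockout and 10310.5 to 14201 in wild type. They were led by the complement genes C1qa at 0.758-fold and C1qb at 0.778-fold and the receptor Csf1r at 0.865-fold. Skeletal muscle markers had a median of 0.39 over 8 of 10, with sums of 6725 to 19661 in knockout and 6250 to 11657 in wild type. They were led by Myh4 at 1.83-fold, Pvalb, which spinal neurons also express, at 1.07-fold and Atp2a1 at 1.39-fold. Knockout replicate 2 stood far above the other arrays at Myh4 and Atp2a1. Myh4 had 262, 2151 and 262 in knockout and 117, 253 and 815 in wild type, and Atp2a1 had 164, 1128 and 159 in knockout and 90.2, 201 and 600 in wild type. Schwann cell markers had a median of 0.13 over 4 of 6, with sums of 17613 to 24412 in knockout and 14975 to 17295 in wild type. Their leading members were Pmp22 at 1.37-fold, Ncmap at 1.28-fold and Egr2 at 0.801-fold. Dorsal root ganglion markers had a median of 0.23 over 3 of 7, with sums of 2986 to 3670 in knockout and 2833 to 3527 in wild type. They were Prph at 1.31-fold, Pou4f1 at 1.17-fold and Tac1 at 0.874-fold. No tested marker of these lists passed in limma, and their part in the reticulon results was not tested.

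**Figure D4:**
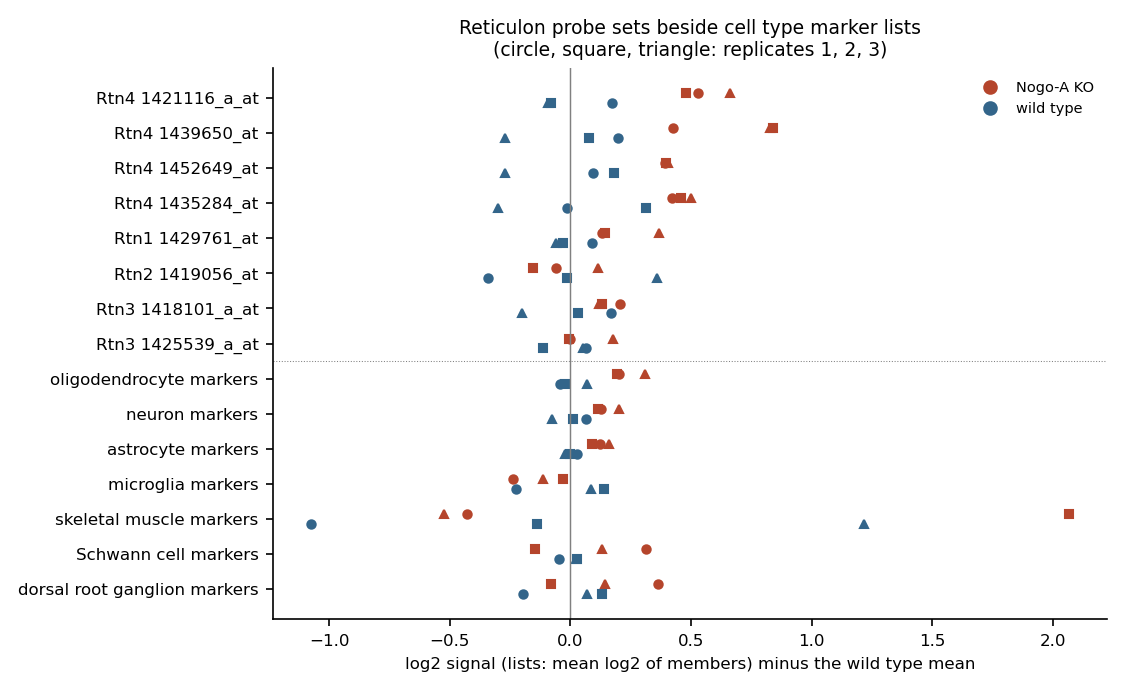
Log2 signals of the 8 reticulon probe sets other than 1437224_at (above the dotted line) and mean log2 signals of the tested members of cell type marker lists (below it), each minus its wild type mean, for 3 Nogo-A knockout and 3 wild type arrays. The list means of oligodendrocyte, neuron and astrocyte markers are higher on each knockout array than on every wild type array. They differ by 0.23, 0.15 and 0.12, against 0.56 at Rtn4 1421116_a_at, a single probe set. Single members of the lists can differ by more than this probe set, as Myrf at 0.64 and Gfap at 0.57.

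Genes that work beside reticulons gave no call. Of 20 genes that shape the endoplasmic reticulum, 16 were tested, 13 lay above 0, against 51.4% of all tested probe sets, and none passed in limma. At an unadjusted p under 0.05 in limma, 2 were higher and 1 lower, against 4.31% and 3.98% of all, and the median log2 difference was 0.069. Their summed signal was 38231 to 38468 in knockout and 34054 to 38142 in wild type. Ckap4, a protein of reticulum sheets, had 943, 1002 and 1020.0 in knockout and 760, 676 and 731 in wild type, a fold of 1.37 (limma adjusted p = 0.591). Its 3 knockout arrays lay above all wild type arrays, as at 7.85% of tested probe sets. Reep5, a tubule-forming partner of reticulons, was 1.18-fold, and Atl3, an atlastin that fuses tubules, was 0.796-fold with 521, 415 and 503 in knockout and 583, 627 and 592 in wild type (limma adjusted p = 0.595 and 0.600).

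Receptors and partners of Nogo-A, 13 of 16 tested, summed to 44239 to 49915 in knockout and 39868 to 41546 in wild type, with App giving the most. They had a median of -0.017, with 6 above 0 (against 51.4% of all tested), none past the threshold in limma and 2 higher at an unadjusted p under 0.05 (against 4.31% of all). These were App, the amyloid precursor whose cleavage reticulons influence through beta-secretase, at 1.22-fold, and Lingo1, a co-receptor of the Nogo receptor, with 659, 618 and 671 in knockout and 548, 397 and 569 in wild type, or 1.30-fold. S1pr2, a receptor for another stretch of Nogo-A, was 1.54-fold with signals of 215 ± 28.7 in knockout and 141 ± 32.2 in wild type (limma adjusted p = 0.619). Rtn4r, which encodes the Nogo receptor itself, had 198 ± 94.9 in knockout and 101 ± 58.5 in wild type (SD, n = 3 each), or 2.07-fold (limma unadjusted p = 0.0834, adjusted p = 0.633), with overlapping genotypes. Its signal was under the array median on every wild type array and on knockout replicate 3, and that of S1pr2 on wild type replicates 2 and 3. Both passed the filter only through knockout, and their folds rest on dim signals.

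The genes most like each reticulon over the 6 arrays were found by Pearson's r of log2 signal among 20435 probe sets with 1 symbol, as a description of 6 points that share genotype and scaling. Rtn1 was most like Pggt1b, a prenyltransferase subunit, the long noncoding RNA Meg3 and Nefh, the heavy neurofilament, with r of 0.997, 0.994 and 0.994. Rtn2 was most like Shisa5, Gp5 and Ncaph2 (r of 0.993 to 0.997), each highest on wild type replicate 3 and lowest on wild type replicate 1. Rtn3 1418101_a_at was most like the kinase gene Csnk1a1, Uqcc1 and the axonal potassium channel gene Kcna2 (r of 0.995 to 0.997), each lowest on wild type replicate 3. Rtn4 1452649_at was most like Adamtsl1, the ATP synthase gene Atp5g3 and Maco1 (r of 0.991 to 0.997). Adamtsl1 was under the array median on every wild type array (115.5, 153.4 and 56.0). It passed the filter only through knockout, so its r rests on dim wild type signals. Rtn4 1437224_at was most like Nit1, Nsun3 and A230070E04Rik (r of 0.981 to 0.996), but Nit1 had 1176, 1137 and 1121 in knockout and 1239, 1250.1 and 1240.3 in wild type, a far smaller difference. A230070E04Rik was under the array median on every knockout array (136, 124 and 102) and passed the filter only through wild type. With so few arrays, high r is common: 117 probe sets had r above 0.95 with Rtn1 and 221 with Rtn3 1418101_a_at.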

How the data were processed

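Total RNA of whole spinal cord was hybridized to 1 array per mouse, per the labels. The authors made the deposited intensities, on a linear scale, with MAS 5.0 (design text of the series) in GCOS 1.4 (submitters' processing notes). The later GeneSpring 7.2 steps of that text are not in these values, and present calls and scan batches are not given in the sources used here. No column was left without a sample.

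Intensities were taken to log2 without a pseudocount. The deposited scaling was kept because the table had already been brought to a common target. Control probe sets (64) were left out, and the filter at the 50th percentile left 23525. Knockout minus wild type was fitted over all of them in limma 3.58.1 under R 4.3.3 (lmFit, eBayes with intensity trend), with Benjamini-Hochberg adjustment at 0.05 and 95% intervals. The study's 1-factor test was run as the methods' t-test. Within-array ratios were tested by exact permutation over the 6 arrays. With 3 arrays a genotype, their number limits the precision.

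Gene symbols of the platform annotation were brought up to date by gene identifier from a RefSeq table of GRCm38.p6 (34754 probe sets matched), and promoter sequences from RefSeq in the same build, in which all 4 genes matched. No probe set was annotated to a reticulon together with another gene. The files name no build, so coordinates are those of the annotation. The members, the gene lists and the rule for named genes were chosen with earlier results of these data known. The rule took every reticulon probe set, from each list the members past the threshold and up to 3 others by smallest p (a gene stood for by its brightest tested probe set), and the 3 most similar genes. Rtn4r, Mog, Cldn11, Slc17a6, Slc6a5 and Acta1 were named outside that rule, after their values were seen.

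The fit was tested on simulated data for this comparison, 5 simulations over 23525 probe sets with 200 changed in each, in which 27 calls were false in all. Other settings were median scaling, quantile normalization, the filter dropped or moved to the 25th or 75th percentile, an added offset (0.25 of the median), eBayes without trend, a replicate block and each array left out.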

Additional observations from a re-analysis of the deposited data

How the results depend on the processing

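The 4 Rtn4 probe sets other than 1437224_at and those of Rtn1 and Rtn3 1418101_a_at kept their direction and stayed short of the adjusted threshold in all 15 planned settings, Rtn3 1418101_a_at with only 0.0015 after quantile normalization. The lost signal of 1437224_at stayed lower in knockout throughout, with -7.62 at an adjusted p of 0.533 in limma without the trend, and the same value at 0.684 in the methods' t-test after Benjamini-Hochberg adjustment. In both, 0 probe sets were lower at the threshold, and 0 of the reticulons, with 1 in the reported fit. At the study's own thresholds 527 probe sets were higher and 609 lower, and 3 of those higher were reticulons. Leaving out each array in turn moved 1437224_at between -8.79 and -6.82 with 0 to 1 reticulon probe sets lower, while over all probe sets 0 to 8 were lower and 0 to 1 higher. Rtn2 ranged from -0.21 to 0.14 and Rtn3 1425539_a_at from -0.0040 to 0.088 without each array in turn. Rtn2 reversed to 0.19 with median scaling and Rtn3 1425539_a_at to -0.041 after quantile normalization. Median scaling put 2805 probe sets on the higher and 265 on the lower side at an unadjusted p under 0.05, against 1013 and 937 with the deposited scaling. In settings added after seeing the data, values relative to the oligodendrocyte markers turned to -0.021 for Rtn1, -0.084 for Rtn3 1418101_a_at and -0.18 for Rtn3 1425539_a_at, and relative to the neuron markers the last was -0.092. Both steps subtract a list that was itself higher in knockout. For the other changes the cause was not tested.

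Whether the replicate numbers pair the samples is not given in the labels, and correlations between the arrays do not settle it. Deviations of same-numbered arrays correlated at -0.035, 0.074 and 0.114, the last the highest of all pairs. Wild type replicates 2 and 3 correlated best with the knockout of the same number, and wild type replicate 1 with knockout replicate 2 (0.080). With the replicate block, 3 probe sets were higher at the threshold and none was a reticulon, and 1437224_at had an adjusted p of 0.000155 in limma. No signal over background is given in the sources used here, so the size of the change at 1437224_at, dim in knockout, is known only as a bound.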

Other observations

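The Rtn4 probe set 1452649_at varied very little in the knockout, with a coefficient of variation of 0.382% over 3 arrays, against 15.9% in wild type. Wild type replicate 3 stood apart there, at 15477 against 19922 and 21162.5. Probe set 1435284_at was likewise tight in knockout, at 2.79% against 21.3% in wild type. Probe set 1421116_a_at had 6.56% in knockout against 10.5% in wild type, and 1439650_at had 15.5% against 16.1%. Lower values in knockout were not particular to Rtn4, with 9.60% against 24.3% at Rtn2 and 3.30% against 12.8% at Rtn3 1418101_a_at. Rtn1 had 9.40% in knockout against 5.61% in wild type, and Rtn3 1425539_a_at had 7.29% against 6.81%.

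The probe sets of Rtn3 did not follow each other over the 6 arrays, with a Pearson's r of 0.056 between 1418101_a_at and 1425539_a_at. Between Rtn4 1452649_at and 1435284_at r was 0.972, and between 1421116_a_at and Rtn1 it was 0.911. These are descriptions of 6 arrays that share the genotype difference and the scaling.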
